A study of Mus musculus with 2 samples.

Results

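The genes described here are Ccl3, Ccl4, Ccl5, Ccl6 and Xcl1, 5 chemokine genes chosen by name and not by a measured value, out of 2000 genes measured in each of 2 single-cell RNA libraries. Spleen and bone marrow cells of WT C57BL/6 mice had been injected into lethally irradiated WT BALB/C mice, an allogeneic transplant, and the recipients' spleen cells were sequenced on day 6. The anti-IL-2 library came from recipients treated with a monoclonal antibody against the T-cell growth factor IL-2. The tacrolimus library came from recipients given tacrolimus, a calcineurin inhibitor that keeps NFAT factors out of the nucleus. Both treatments ran from day 0 to day 6, and no untreated library was used here. How many recipients stood behind each library, and the doses, are not given in the sources used here.

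Chemokines are small secreted proteins that draw leukocytes along a gradient by acting on G protein-coupled receptors. Activated T cells make CCL3, CCL4 and CCL5, and CD8 T cells and NK cells make XCL1, whose receptor XCR1 marks the dendritic cells that cross-present antigen. CCL6 is a rodent chemokine best known from myeloid cells.

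In mm10 (GENCODE M21) 4 of the 5 genes lie in one stretch of chromosome 11: Ccl5 (83525778 to 83530518, minus strand), Ccl6 (83587882 to 83593087, minus), Ccl3 (83647844 to 83649355, minus) and Ccl4 (83662584 to 83664683, plus). Ccl3 and Ccl4 are neighbours 13228 bases apart, transcribed in opposite directions. Xcl1 lies on chromosome 1 (164931644 to 164935527, minus strand). All 5 are protein-coding genes, with 3 exons in the annotated coding transcripts of Ccl3, Ccl4, Ccl5 and Xcl1 and 4 in that of Ccl6, and none shared a run of 50 bases with a transcript of another gene. RefSeq promoter sequences (GRCm38.p6) were at hand for Ccl3, Ccl6 and Xcl1, and the 250 bases before each start are shown because 1 library was made under an inhibitor of NFAT activation. Capitals mark the NFAT core GGAAA or its reverse complement TTTCC.
Ccl3, chr11:83649379-83649628, minus strand: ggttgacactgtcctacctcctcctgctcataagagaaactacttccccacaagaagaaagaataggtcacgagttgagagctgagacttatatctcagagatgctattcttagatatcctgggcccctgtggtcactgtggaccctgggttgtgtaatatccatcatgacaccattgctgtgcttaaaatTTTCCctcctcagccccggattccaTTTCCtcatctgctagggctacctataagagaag
Xcl1, chr1:164935523-164935772, minus strand: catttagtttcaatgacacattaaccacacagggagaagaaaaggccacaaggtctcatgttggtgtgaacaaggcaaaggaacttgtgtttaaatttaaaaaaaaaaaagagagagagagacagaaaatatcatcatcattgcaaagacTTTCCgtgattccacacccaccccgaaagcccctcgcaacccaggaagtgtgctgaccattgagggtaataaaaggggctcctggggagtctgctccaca
Ccl6, chr11:83593088-83593337, minus strand: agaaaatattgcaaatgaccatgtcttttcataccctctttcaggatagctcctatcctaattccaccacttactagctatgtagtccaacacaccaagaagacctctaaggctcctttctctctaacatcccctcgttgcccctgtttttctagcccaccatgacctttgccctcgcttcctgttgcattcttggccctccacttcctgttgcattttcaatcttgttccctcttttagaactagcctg
The core occurred 2 times before Ccl3, 1 time before Xcl1 and 0 times before Ccl6. Of 32851 promoter windows of this length, 55.6% held it at least once and 21.4% at least 2 times, so its presence before Ccl3 or Xcl1 is common. TATAAA or its reverse complement, found in 12.4% of windows, and the AP-1 motif TGANTCA, found in 6.75%, occurred in none of these 3 windows.

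With 1 library per treatment, no difference below has a replicate check or a test, and every difference between treatments is also one between libraries. The value used is a share of cells, those in which 1 or more UMIs (counted molecules) of a gene were found, with an exact 95% interval that covers counting error only. Tacrolimus UMIs were read exactly from the deposited values, whereas anti-IL-2 detections were recovered from batch-integrated values after an estimated shift had been removed. T cells, with 200 or more detected genes and without markers of other lineages, came to 1038 in the anti-IL-2 library (median 12141 UMIs per cell) and 1373 in the tacrolimus library (median 13254). Of 10 T-cell markers, Cd4, Cd8a and Cd8b1 were measured, and these set the gates. The CD8 gate (Cd8a or Cd8b1 without Cd4) held 673 anti-IL-2 and 956 tacrolimus cells, and the CD4 gate (Cd4 without either) held 247 and 288. The libraries shared 4 cell barcodes. Pancreatic acinar genes, foreign to these cells, were seen in 7.73% of the CD8-gated cells under anti-IL-2 and in 75.3% under tacrolimus (any of 15 measured genes), while erythroid genes ran the other way, in 10.1% under anti-IL-2 and 1.88% under tacrolimus (any of 9 measured genes). The part of RNA from other cells in the results was not tested.

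Of the 5 genes, Xcl1 stood furthest apart between the libraries. In the CD8 gate it was detected in 117 of 673 cells under anti-IL-2 (17.4%, 14.6 to 20.5%), against 3.96% (2.82 to 5.40%) under tacrolimus after thinning. The ratio was 4.39-fold (3.02 to 6.51), and over all T cells it was 4.25-fold (11.9% against 2.81%, 2.94 to 6.27). For thinning, tacrolimus cells deeper than the anti-IL-2 cells of the same rank were cut to that depth. The others were left whole, so depths were not made equal. Before thinning, CD8-gated medians were 14083 UMIs under anti-IL-2 and 13982 under tacrolimus. The 171 deepest anti-IL-2 CD8-gated cells had 21443 UMIs or more, and the 239 deepest tacrolimus ones 18882 or more. A size rule was set at shares 1.5-fold or more apart, with 5% or more in either library. Xcl1 was the 1 gene of the 5 that met it in the CD8 gate, where 9.29% of 936 genes met it upwards and 9.4% downwards, and the 1 gene that met it over all T cells, where 10.7% of 940 genes did so upwards and 16.3% downwards.

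The other 4 genes had closer shares in the CD8 gate. Ccl3 was in 30.01% of anti-IL-2 cells, against 29.6% of thinned tacrolimus cells (ratio 1.015, 0.843 to 1.22). Ccl4 was in 40.3% under anti-IL-2, against 42.7% (0.944, 0.807 to 1.10), and Ccl6 in 9.36%, against 8.35% (1.12, 0.793 to 1.58). Ccl5, the most widely detected, had a share of 64.9% under anti-IL-2 (61.2 to 68.5%), against 78.9% under tacrolimus after thinning (76.1 to 81.4%). Its log2 ratio was -0.28 with the estimated shift removed but 0.13 with the shift left in, so the direction for Ccl5 rests on that step. Before thinning, the tacrolimus shares were 30.02% for Ccl3, 43.2% for Ccl4, 79.3% for Ccl5, 8.47% for Ccl6 and 3.97% for Xcl1.

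**Figure D1:**
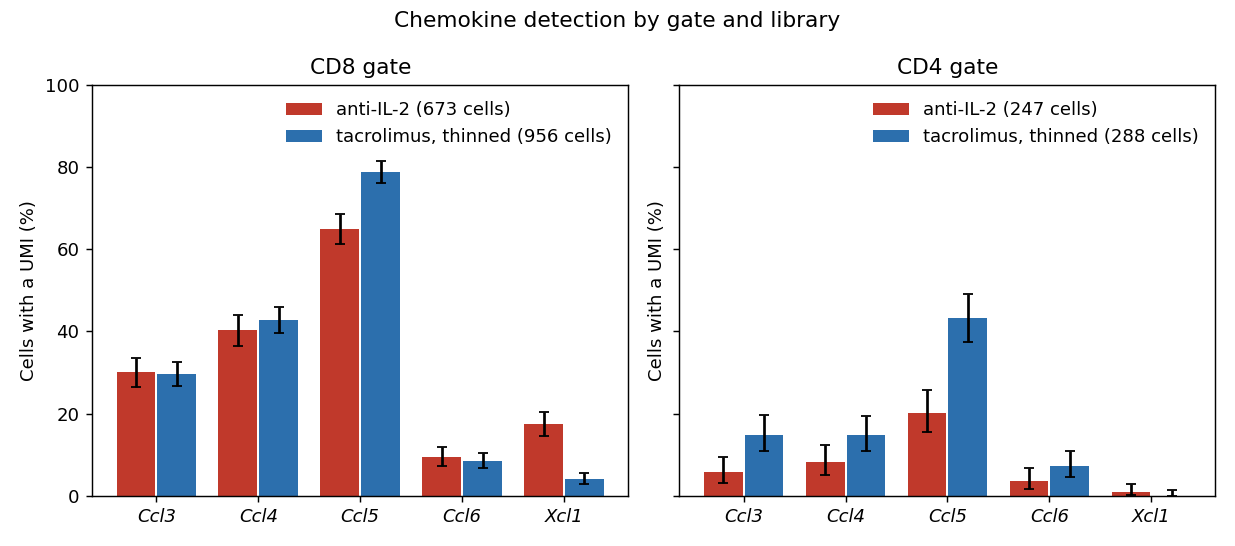
Cells with a UMI of each gene (vertical axis, percent of the gate) in the CD8 gate (left) and the CD4 gate (right). Red bars are anti-IL-2 cells, blue bars tacrolimus cells thinned by rank where they were the deeper ones. Error bars are exact 95% intervals of counting error. Xcl1 is 17.4% against 3.96% in the CD8 gate, and Ccl3, Ccl4 and Ccl5 are lower under anti-IL-2 in the CD4 gate.

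In the CD4 gate the pattern was another one. Ccl3 was in 14 of 247 anti-IL-2 cells (5.67%, 3.13 to 9.33%), against 14.9% of thinned tacrolimus cells (10.98 to 19.5%), a ratio of 0.381 (0.192 to 0.710). Ccl4 was in 8.10%, against 14.7% (ratio 0.551, 0.307 to 0.958), and Ccl5 in 20.2%, against 43.3% (ratio 0.468, 0.330 to 0.654). Ccl6 was in 3.64% under anti-IL-2 and 7.21% under tacrolimus, and the interval of its ratio of 0.505 reached 1.15. All 4 genes met the size rule downwards, but so did 35.2% of the 914 genes tested in this gate, with 13.1% upwards. With the integration shift left in, the Ccl5 log2 ratio was -0.50, against -1.10 with it removed, and Ccl5 no longer met the rule. The median log2 ratio was -1.04 over the 4 genes and -0.24 over all genes. Xcl1 was seen in 2 of 247 CD4-gated cells under anti-IL-2 and in 0 of 288 under tacrolimus, where a count of 0 allows up to 1.04%, and no fold is given.

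Cells of other lineages give a background level for such shares, the source of which was not tested. In 38 anti-IL-2 cells that carried B-cell, plasma-cell or erythroid genes (median 14436 UMIs), Ccl3 was detected in 7.89%, Ccl4 in 18.4%, Ccl5 in 26.3% and Ccl6 in 13.2%. Xcl1 was detected in none of them, and 0 of 38 leaves room for 7.89%. Of these cells 16 also lay in the CD4 gate and 12 in the CD8 gate, so they are no clean measure of cells without T-cell RNA. The 21 with B-cell or plasma-cell genes alone (median 10467 UMIs) had Ccl3 in 4.76%, Ccl4 in 9.52%, Ccl5 in 23.8% and Ccl6 in 9.52%, while the 17 erythroid cells were far deeper (median 60589 UMIs). The shares of Ccl3, Ccl4, Ccl5 and Ccl6 in anti-IL-2 CD4-gated cells (median 9249 UMIs) lay at or below those of the 38 cells and cannot be told apart from background as shares of the whole gate, nor can the 9.36% of Ccl6 in anti-IL-2 CD8-gated cells. Within that CD4 gate Ccl5 was uneven, from 6.92% of non-dividing Tcf7-detected cells to 56.2% of dividing Tcf7-undetected cells. Those of Ccl3, Ccl4, Ccl5 and Xcl1 in anti-IL-2 CD8-gated cells (median 14083 UMIs) lay above them.

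The tacrolimus library had 19 such cells (median 14546 UMIs), 2 of them in the CD8 gate. Ccl3, Ccl4 and Ccl5 were each seen in 1 of them (5.26%, 0.133 to 26.0%), and Ccl6 and Xcl1 in 0, which leaves room for 15.8%. The tacrolimus shares of Ccl6 in either gate and of Xcl1 in the CD8 gate cannot be told apart from that limit, nor can the CD4-gate shares of Ccl3 and Ccl4 from the upper bound of 26.0%. Ccl3, Ccl4 and Ccl5 in the CD8 gate and Ccl5 in the CD4 gate lay above it.

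Both libraries had these chemokines mainly in the CD8 gate. Under anti-IL-2, CD8-gated cells exceeded CD4-gated cells 5.30-fold for Ccl3 (30.01% against 5.67%), 4.97-fold for Ccl4, 3.21-fold for Ccl5, 2.57-fold for Ccl6 and 21.5-fold for Xcl1 (5.81 to 179). All 5 genes met the size rule, as did 41.1% of 941 genes in that direction and 10.5% in the other, the CD8-gated cells were deeper, and Ccl6 could not be told apart from background in either gate. Under tacrolimus the ratios were 1.92 for Ccl3 (30.02% against 15.6%), 2.77 for Ccl4 (43.2% against 15.6%) and 1.74 for Ccl5 (79.3% against 45.5%), where 12.5% of 935 genes met the rule upwards and 8.77% downwards. At a fixed depth of 8000 UMIs these 3 still met it, with Ccl5 in 69.7% of CD8-gated and 42.6% of CD4-gated tacrolimus cells. Xcl1 was in 38 of 956 CD8-gated and 0 of 288 CD4-gated tacrolimus cells. Set against 3 counts over the CD4-gated cells, the CD8-gate share was 3.82-fold higher, without the counting error of the 38. At the fixed depth Xcl1 was in 2.43% of 828 CD8-gated and 0 of 243 CD4-gated cells. Between 8000 and 16000 UMIs it was in 1.28% of 468 and 0 of 169, too few cells for a fold. Ccl6 did not follow the gates under tacrolimus, with 8.47% and 8.33% at full depth.

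Within the CD8 gate the chemokines divided along Tcf7, the gene of TCF-1, a transcription factor found in naive and memory T cells and in stem-like ones. Under anti-IL-2, 277 of 673 CD8-gated cells had Tcf7 (41.2%), and under tacrolimus 27 of 956 did (2.82%). The anti-IL-2 share depends on how the shift was handled, from 22.9% with it left in to 47.3% with no median over neighbouring cells. Under anti-IL-2, Xcl1 was in 30.7% of Tcf7-detected cells (85 of 277) and 8.08% of Tcf7-undetected cells (32 of 396), a 3.80-fold ratio (2.50 to 5.90). Under tacrolimus it was in 22.2% (6 of 27) and 3.44% (32 of 929), a 6.45-fold ratio (2.21 to 15.6). Tcf7-detected cells made up 72.6% of Xcl1-positive CD8-gated cells under anti-IL-2 (63.6 to 80.5%) and 15.8% of those under tacrolimus (6.02 to 31.2%). The size rule was met by Xcl1 upwards in both libraries, as it was by 13.7% of 943 genes under anti-IL-2 (7.85% downwards) and by 19.8% of 951 under tacrolimus (8.94% downwards).

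Ccl5 went the other way. It was in 43.0% of Tcf7-detected (119 of 277) and 80.3% of Tcf7-undetected anti-IL-2 CD8-gated cells, a ratio of 0.535 (0.430 to 0.662), and in 51.9% (14 of 27) and 80.1% under tacrolimus, a ratio of 0.648 whose interval reached 1.09. Ccl3 was in 20.2% of Tcf7-detected and 36.9% of Tcf7-undetected anti-IL-2 cells (ratio 0.548, 0.396 to 0.751), and Ccl4 in 31.0% and 46.7% (0.665, 0.508 to 0.863). These 3 met the size rule downwards. With the integration shift left in, Xcl1 kept its higher share (log2 1.22, against 1.92 with it removed), but the Ccl5 log2 ratio was 0.018 in place of -0.90, so the Ccl5 contrast of the anti-IL-2 library rests on removal of the shift. Between the forms of removal tried it ran from -0.45 to -1.20. Among anti-IL-2 CD8-gated cells with 8000 to 16000 UMIs, Xcl1 was in 27.6% of 127 Tcf7-detected and 5.29% of 170 Tcf7-undetected cells, Ccl5 in 33.1% and 81.8%, Ccl4 in 11.02% and 45.9% and Ccl3 in 12.6% and 38.2%. At all depths the Ccl4 contrast lay in non-dividing cells (16.7% with Tcf7, 50.4% without), not in dividing ones (48.0% and 45.1%). Ccl3 was in 14% and 43.1% of non-dividing cells. In dividing cells it was in 27.6% and 34.1%, with intervals that overlapped. Ccl5 was in 32% and 84.6% of non-dividing and 55.9% and 78.4% of dividing cells.

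In the tacrolimus CD8 gate, where no shift was involved, 27 Tcf7-detected cells give wide limits. Ccl3 was in 22.2% of Tcf7-detected and 30.2% of Tcf7-undetected cells, Ccl4 in 37.0% and 43.4%, and Ccl6 in 14.8% (4 of 27) and 8.29%. Counted as UMIs of the gene per 10000 UMIs, Xcl1 stood at 0.471 in Tcf7-detected and 0.159 in Tcf7-undetected cells, Ccl5 at 7.24 and 13, Ccl4 at 1.71 and 2.03 and Ccl3 at 0.608 and 1.16. These levels rest on few cells: without the 1 cell with the most UMIs in each group, Xcl1 stood at 0.163 and 0.0961, Ccl5 at 5.29 and 12.8, Ccl4 at 0.959 and 1.89 and Ccl3 at 0.363 and 1.13. At a fixed depth of 8000 UMIs, Xcl1 was in 11.97% of 24 Tcf7-detected and 2.14% of 804 Tcf7-undetected cells. Between 8000 and 16000 UMIs it was in 0 of 9 Tcf7-detected and 1.31% of 459 Tcf7-undetected cells, and Ccl4 in 44.4% and 41.4%, too few cells for a comparison.

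Taking Ccl5 and Xcl1 together, 20.2% of anti-IL-2 Tcf7-detected CD8-gated cells had Xcl1 without Ccl5, 10.5% had both, 32.5% had Ccl5 without Xcl1 and 36.8% had neither. Among Tcf7-undetected anti-IL-2 cells the same shares were 2.78%, 5.30%, 75% and 16.9%. These anti-IL-2 shares rest on removal of the shift. With it left in, Ccl5 was in 85.2% of CD8-gated cells (64.9% with it removed) and Tcf7 in 22.9% (41.2%). The tacrolimus cells without Tcf7 had close to the same make-up in Ccl5 alone (78.0%) and in neither gene (18.5%), with Xcl1 without Ccl5 in 1.399% and both in 2.05%.

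**Figure D2:**
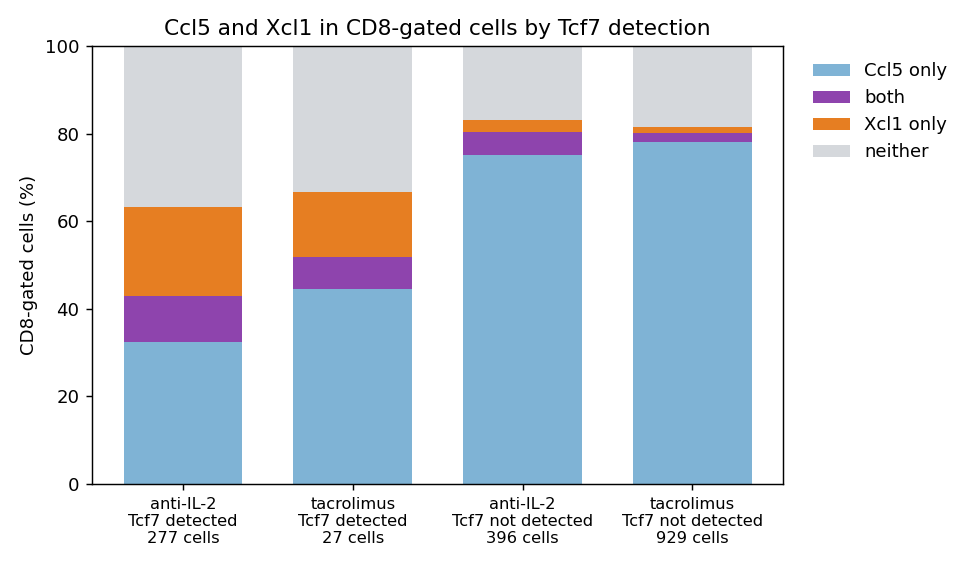
CD8-gated cells (vertical axis, percent) split by detection of Ccl5 and Xcl1, in cells with Tcf7 (2 left bars) and without it (2 right bars), anti-IL-2 left of tacrolimus in each pair. Cells with Xcl1 but no Ccl5 are 20.2% of the Tcf7-detected anti-IL-2 cells and 2.78% of those without Tcf7. The anti-IL-2 bars depend on removal of the integration shift, and the tacrolimus bar with Tcf7 rests on 27 cells.

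Division was called where at least 4 of 10 cell-cycle genes were detected. By this rule 59.4% of CD8-gated cells under anti-IL-2 and 81.8% under tacrolimus were dividing, and in the CD4 gate 22.7% and 63.9%. Cells next to the limit, with 3 or 4 of these genes, were 10.3% of the CD8 gate under anti-IL-2 and 8.996% under tacrolimus. Splitting the CD8 gate by both division and Tcf7 gave 4 states. In dividing Tcf7-detected cells Xcl1 was in 31.5% under anti-IL-2 (127 cells) and 31.6% under tacrolimus (6 of 19 cells, 12.6 to 56.6%). In dividing Tcf7-undetected cells it was in 7.33% under anti-IL-2 (273 cells, 4.53 to 11.1%) and 3.93% under tacrolimus (763 cells, 2.67 to 5.57%). In non-dividing Tcf7-undetected cells it was in 9.76% under anti-IL-2 (123 cells, 5.14 to 16.4%) and 1.20% under tacrolimus (166 cells, 0.146 to 4.28%). Non-dividing Tcf7-detected cells had it in 30% under anti-IL-2 (45 of 150 cells) and in 0 of 8 under tacrolimus, too few cells for a comparison.

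The mix of states differed between the libraries, and a comparison at equal mix was added after these values had been seen. Weighting the anti-IL-2 cells to the tacrolimus mix of the 4 states gave an Xcl1 share of 8.42% in the CD8 gate (8.42 to 12.3% over the forms of shift handling), against 17.4% as observed under anti-IL-2 and 3.97% under tacrolimus. The same weighting put Ccl5 at 78.6% for anti-IL-2 in the CD8 gate (74.3 to 83.9%), against 79.3% for tacrolimus. It moved Ccl3 away from tacrolimus, to 35.3% against 30.02%, put Ccl4 at 45.8% (41.5 to 49.6%) against 43.2%, and Ccl6 at 8.82% against 8.47%. In the CD4 gate it put anti-IL-2 at 45.3% for Ccl5 (45.3 to 54.2%), against 45.5% for tacrolimus, and at 16.8% for Ccl4 (13.7 to 20.03%), against 15.6%, so the side on which Ccl4 fell depended on the shift handling. Ccl3 was at 10.3% against 15.6% and Ccl6 at 3.36% against 8.33%. The weighted anti-IL-2 values of the CD4 gate lean on 32 dividing and 32 non-dividing cells without Tcf7.

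**Figure D3:**
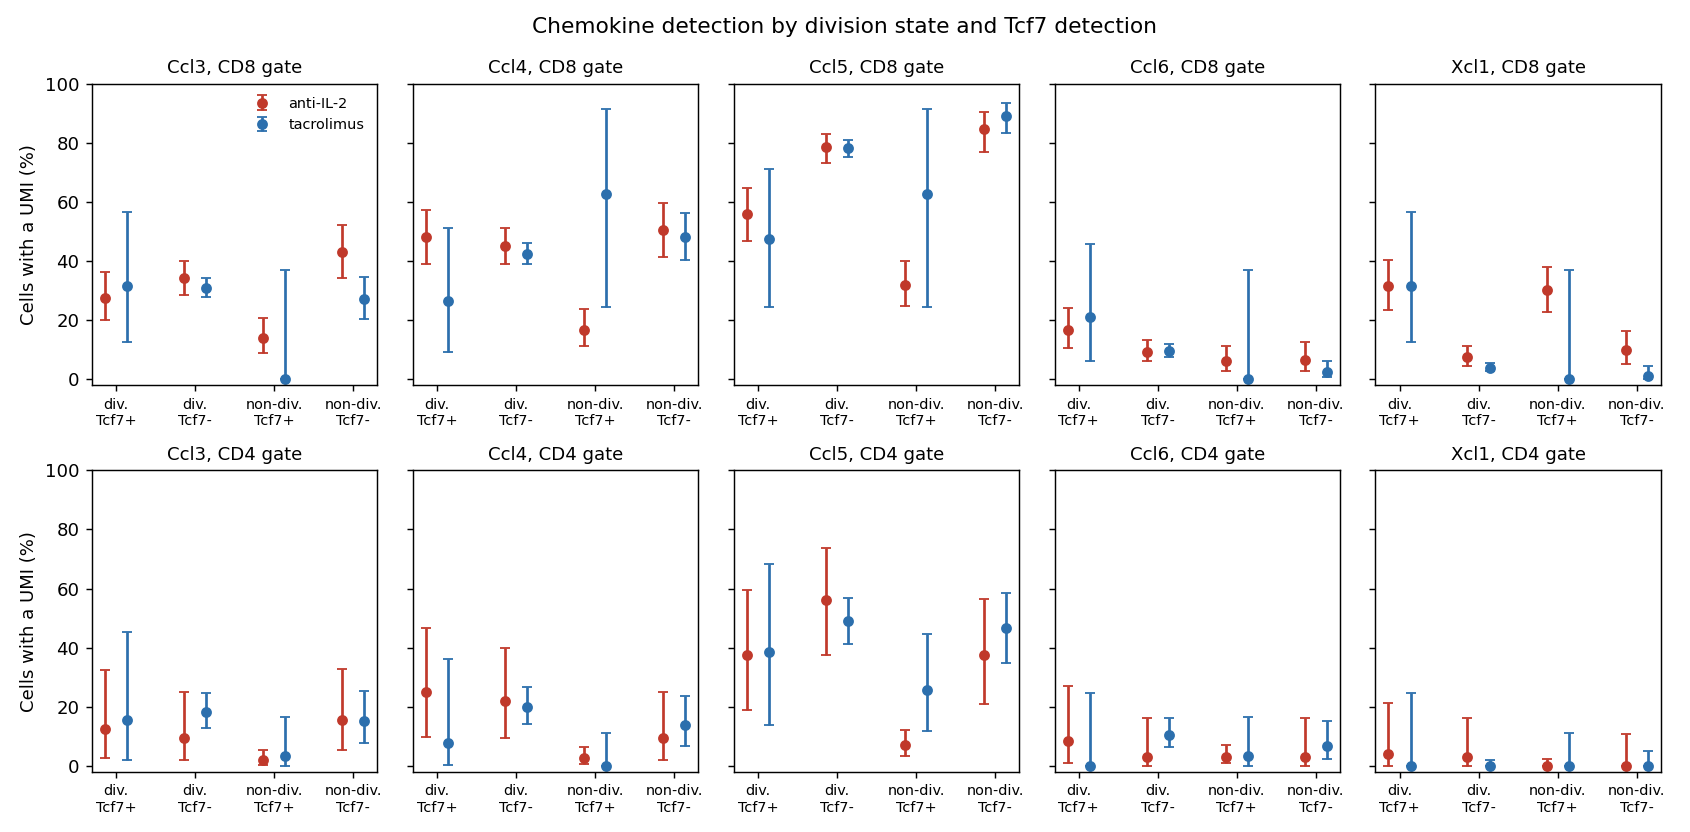
Share of cells with a UMI (vertical axis, percent) of each gene in the CD8 gate (upper row) and the CD4 gate (lower row), for dividing (div.) and non-dividing (non-div.) cells with (Tcf7+) and without (Tcf7-) Tcf7. Red points are anti-IL-2, blue points tacrolimus without thinning, and bars are exact 95% intervals; Xcl1 is near 30% in both Tcf7+ states of anti-IL-2 CD8-gated cells and under 10% in both Tcf7- states.

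Across the 8 groups of the anti-IL-2 library Ccl5 ranged from 6.92% of non-dividing Tcf7-detected CD4-gated cells (159 cells) to 84.6% of non-dividing Tcf7-undetected CD8-gated cells. Dividing Tcf7-undetected CD8-gated cells were next at 78.4%, and the intervals of these highest 2 overlapped. Ccl3 was highest in the same non-dividing Tcf7-undetected CD8-gated cells (43.1%, 34.2 to 52.3%) and lowest in non-dividing Tcf7-detected CD4-gated cells (1.89%). Ccl4 reached 50.4% in non-dividing Tcf7-undetected CD8-gated cells, 48.0% in dividing Tcf7-detected and 45.1% in dividing Tcf7-undetected ones, with intervals that overlapped, and 16.7% in non-dividing Tcf7-detected ones.

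Between dividing and non-dividing CD8-gated cells of the anti-IL-2 library, Ccl3 was in 32% of dividing and 27.1% of non-dividing cells, Ccl4 in 46% and 31.9%, Ccl5 in 71.2% and 55.7%, and Xcl1 in 15% and 20.9%. Of the 5 genes, Ccl6 alone met the size rule (11.5% against 6.23%), which 50.1% of 935 genes met upwards and 4.71% downwards, and dividing cells were deeper (median 18949 UMIs, against 10998). Among those with 8000 to 16000 UMIs, Xcl1 was in 3.60% of 111 dividing and 21.5% of 186 non-dividing cells. Under tacrolimus, Ccl4 was in 41.9% of dividing and 48.9% of non-dividing CD8-gated cells, Ccl5 in 77.4% and 87.9%, and Ccl6 in 9.85% and 2.30%, where 54.8% of 899 genes met the rule upwards and 2% downwards.

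Depth and Xcl1 went together under tacrolimus. There 30 of the 38 Xcl1-positive CD8-gated cells were among the 239 deepest, those with 18882 UMIs or more, where Xcl1 was in 12.6% (8.63 to 17.4%), while it was in 0.418% of the 239 shallowest. Under anti-IL-2 it was in 25.7% of the 171 deepest and 16.5% of the 164 shallowest cells. Ccl5 ran the other way under tacrolimus, in 65.7% of the 239 deepest and 85.8% of the 239 shallowest cells. Under anti-IL-2 it did not, with 69.0% of the 171 deepest and 57.9% of the 164 shallowest cells.

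In the CD4 gate of the anti-IL-2 library, Ccl4 was in 23.2% of 56 dividing and 3.66% of 191 non-dividing cells (6.33-fold, 2.35 to 18.7) and Ccl5 in 48.2% and 12.04% (4.004-fold, 2.21 to 7.31). Ccl3 was in 10.7% and 4.19% of these cells, with an interval of the ratio that spanned 1. In that gate 54.5% of 935 genes met the size rule upwards and 8.34% downwards, and dividing cells were deeper (median 18949 UMIs, against 8588). Between 8000 and 16000 UMIs, Ccl4 was in 23.5% of 17 dividing and 2.97% of 101 non-dividing cells of that gate. Ccl5 was in 58.8% and 6.93% of them and Ccl3 in 17.65% and 1.98%. In the tacrolimus CD4 gate Ccl3 was in 17.9% of dividing and 11.5% of non-dividing cells, Ccl4 in 19.0% and 9.62% and Ccl5 in 48.4% and 40.4%, against 49.5% of 907 genes past the rule upwards and 5.18% downwards. At a fixed depth of 8000 UMIs none of the 5 genes met the rule between those tacrolimus cells.

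By Tcf7, CD4-gated cells under anti-IL-2 had Ccl5 in 10.9% of 183 Tcf7-detected and 46.9% of 64 Tcf7-undetected cells (ratio 0.233, 0.126 to 0.424), where 33.2% of 895 genes met the rule downwards and 15.4% upwards. Under tacrolimus Ccl5 was in 29.5% of 44 Tcf7-detected and 48.4% of 244 Tcf7-undetected cells (ratio 0.611, 0.316 to 1.09), with 31.7% of 913 genes past the rule downwards and 10.4% upwards. Ccl4 was in 1 of the 44 Tcf7-detected tacrolimus cells and 44 of the 244 Tcf7-undetected ones.

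How much RNA a positive cell held could be read exactly in the tacrolimus library. CD8-gated cells there had 12.8 UMIs of Ccl5 per 10000 (12.6 to 12.99), 2.02 of Ccl4, 1.14 of Ccl3, 0.17 of Xcl1 and 0.0874 of Ccl6. CD4-gated cells had 5.20 of Ccl5, 2.85 of Ccl4 (2.68 to 3.02), 1.30 of Ccl3 (1.18 to 1.42) and 0.0971 of Ccl6. The order of the gates in Ccl3 and Ccl4 rested on single cells. Without the 1 cell with the most UMIs in each gate, Ccl4 stood at 1.88 in CD8-gated and 1.76 in CD4-gated cells and Ccl3 at 1.11 and 1.08, and Xcl1 at 0.109 in CD8-gated cells. The 5% of CD4-gated cells with the most UMIs held 93.1% of Ccl4 and 84.6% of Ccl3 UMIs, and 1 cell had 418 of the 1086 UMIs of Ccl4. In the CD8 gate the top 5% held 60.3% of Ccl4, 60.8% of Ccl3 and 29.3% of Ccl5 UMIs. Positive CD8-gated cells had a median of 12 UMIs of Ccl5 but 2 of Ccl3 and of Ccl4, and 70.4% of Ccl6-positive and 50% of Xcl1-positive cells had a single UMI, although Xcl1 reached 91 UMIs in 1 cell.

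UMI levels and shares did not always order the division states alike. Ccl5 stood at 10.2 UMIs per 10000 in dividing (10.05 to 10.4) and 33.9 in non-dividing (33.0 to 34.8) tacrolimus CD8-gated cells, and at 3.92 and 8.90 in the CD4 gate. Ccl4 stood at 1.85 in dividing and 3.42 in non-dividing CD8-gated cells, and at 1.63 and 6.37 in the CD4 gate, where its share was the higher one in dividing cells. Ccl3 stood at 1.10 against 1.51 in the CD8 gate and 1.16 against 1.70 in the CD4 gate. Without the 1 cell with the most UMIs in each state, the CD4-gate levels were 1.27 in dividing and 2.16 in non-dividing cells for Ccl4, and 0.935 and 0.865 for Ccl3, so the order for Ccl3 rested on 1 cell. Xcl1 and Ccl6 were higher per 10000 UMIs in dividing CD8-gated cells, with 0.189 against 0.0123 for Xcl1 and 0.0943 against 0.0307 for Ccl6. These intervals treat UMIs as independent, which those of a few cells with many UMIs of a gene are not.

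**Figure D4:**
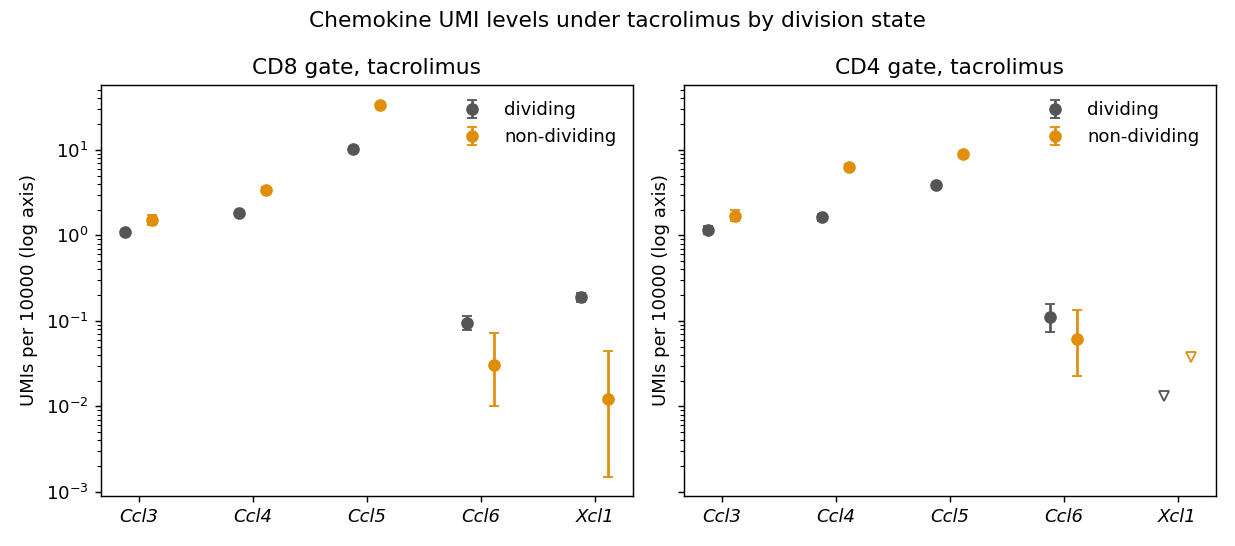
UMIs of each gene per 10000 UMIs (vertical log axis) in dividing (grey) and non-dividing (orange) tacrolimus cells of the CD8 gate (left) and the CD4 gate (right), with exact Poisson 95% intervals. Open triangles mark the upper limit for Xcl1, with 0 UMIs in the CD4 gate; Ccl5 is 10.2 in dividing and 33.9 in non-dividing CD8-gated cells.

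Ccl3 and Ccl4, the neighbours on chromosome 11, were often found in the same cells. In the CD8 gate, 53.5% of Ccl4-positive and 14.2% of Ccl4-negative anti-IL-2 cells had Ccl3, and 49.9% and 14.9% of tacrolimus cells did. Both genes were in 21.5% of cells in either library, 1.78 times the product of their shares under anti-IL-2 and 1.66 times under tacrolimus. In the CD4 gate the same pair was in 12 of 247 anti-IL-2 cells (10.6 times the product) and 27 of 288 tacrolimus cells (3.84 times). Under tacrolimus the excess of this pair over all T cells was larger when 2 UMIs of each were asked for (log2 1.75, against 0.96) and at a fixed depth (1.17).

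Xcl1 and Ccl5 were the pair with the lowest ratio to the product of their shares in the CD8 gate of both libraries. Ccl5 was in 42.7% of Xcl1-positive and 69.6% of Xcl1-negative anti-IL-2 CD8-gated cells (0.658 times the product), and in 55.3% and 80.3% of tacrolimus ones (0.697 times). Over all anti-IL-2 T cells the log2 ratio of this pair was -0.32 with the shift removed, 0.04 with no median over neighbouring cells and 0.33 with the shift left in, so its sign rests on that step. Over all tacrolimus T cells it was -0.38, and -1.12 at a fixed depth of 8000 UMIs.

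For Xcl1 and Ccl3 the libraries gave different values, a difference that was not tested. Ccl3 was in 31.6% of Xcl1-positive and 29.7% of Xcl1-negative CD8-gated cells under anti-IL-2, and in 68.4% of the 38 Xcl1-positive and 28.4% of the other CD8-gated cells under tacrolimus. Xcl1-positive T cells were deep under tacrolimus (median 27337 UMIs, against 13086 without Xcl1) and less so under anti-IL-2 (15548 against 11844). At a fixed depth of 8000 UMIs the tacrolimus pair over all T cells was at log2 1.22, against 1.33 at full depth. Ccl6 was found with Ccl3, Ccl4 or Ccl5 at between 0.919 and 1.23 times the product in the CD8 gate of both libraries.

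**Figure D5:**
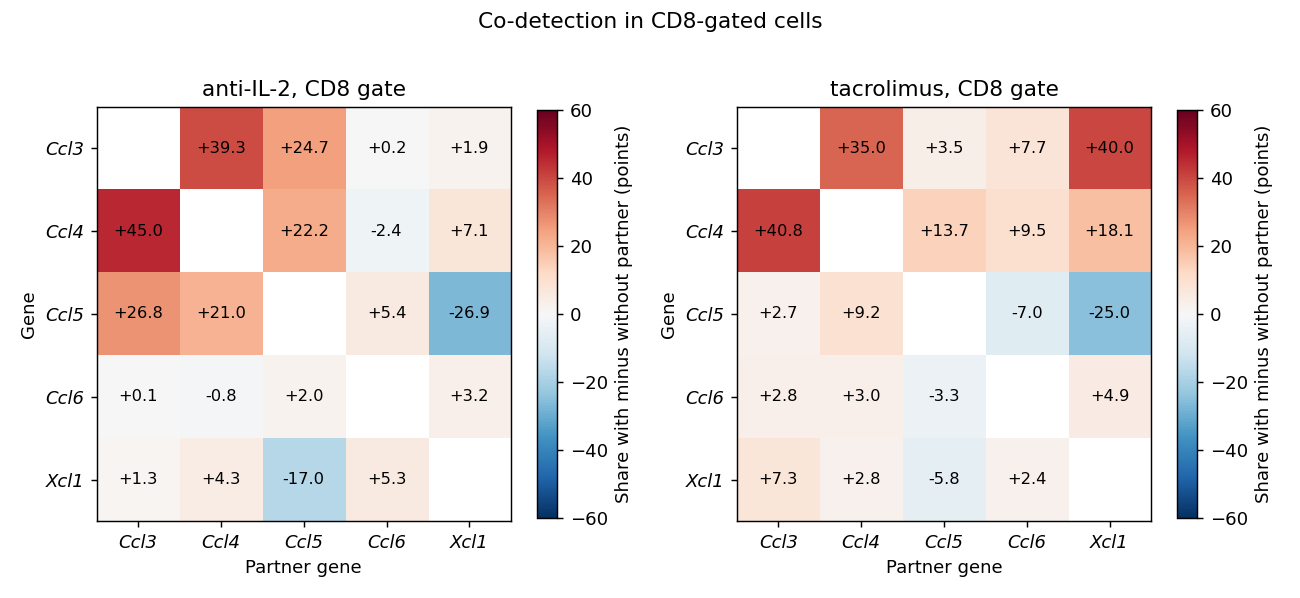
Co-detection in CD8-gated cells of the anti-IL-2 (left) and tacrolimus (right) libraries. Each square is the share of cells with the row gene among cells with the column gene minus that among cells without it, in percentage points; Ccl3 and Ccl4 are the strongest positive pair under anti-IL-2, and Ccl5 with Xcl1 is negative in both libraries.

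None of the 5 genes was detected in 16.2% of CD8-gated cells under anti-IL-2 (13.5 to 19.2%) and 10.3% under tacrolimus (8.40 to 12.3%). Exactly 1 was found in 34.9% and 39.3%, 3 in 17.4% and 17.8%, and 4 in 5.50% and 3.03%. In the CD4 gate 72.1% of cells under anti-IL-2 (66.0 to 77.6%) and 42.4% under tacrolimus (36.6 to 48.3%) had none of them.

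Over the 1373 tacrolimus T cells, the detection most like that of Ccl3 was Ccl4 (phi 0.42, a correlation of 2 detections), then Rgs16, a regulator of G-protein signalling (0.30), and Nr4a2, a nuclear receptor induced by T-cell receptor signals (0.28). Ccl4 was most like Ccl3, Cd8b1 (0.25) and Nr4a2 (0.24). Ccl5 was most like the granzyme genes Gzmk (0.42) and Gzma (0.35) and Cd8a (0.29), and Gzmk was in 76.0% of Ccl5-positive and 31.9% of Ccl5-negative cells. Xcl1 was most like Pusl1, Nrgn and Nos1 (0.26, 0.26 and 0.25), in cells that were deeper as given above, and Ccl6 most like Ccnb1, the cyclin B1 gene, Dnph1 and Marcks (0.11 each). These values share the cells' depth, and Cd8a and Cd8b1 also set the gate.

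Activation genes accompanied Ccl3 and Ccl4. Of 15 measured genes of a list of activation genes, 9 were in at least 1.5-fold more Ccl3-positive than Ccl3-negative anti-IL-2 CD8-gated cells and 0 in fewer, while 8.67% of 934 genes were higher and 2.89% lower. Under tacrolimus 7 were higher and 0 lower, with 14.5% of 919 genes higher and 1.31% lower. Ccl3-positive cells were deeper over all T cells (medians 14797 and 11555 UMIs under anti-IL-2, 16253 and 12456 under tacrolimus). Among the largest differences under anti-IL-2 were Ifng, the interferon-gamma gene (51.5% of Ccl3-positive and 25.5% of Ccl3-negative cells), Irf8 (66.3% and 43.9%), Nr4a2 (58.4% and 36.3%) and Nr4a1 (24.3% and 8.70%). Under tacrolimus Nr4a2 was in 44.3% and 17.3%, Ifng in 47.0% and 25.3% and Irf4, a factor induced by T-cell receptor signals, in 22.0% and 11.2%.

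For Ccl4, 8 of these genes were higher and 0 lower under anti-IL-2 (18.8% of 933 genes higher, 2.89% lower) and 7 higher and 0 lower under tacrolimus (5.67% of 900 higher, 0.667% lower), with Ifng in 52.0% of Ccl4-positive and 20.6% of Ccl4-negative anti-IL-2 cells. Ccl4-positive cells were also deeper over all T cells (medians 16745 and 10998 UMIs under anti-IL-2, 14692 and 12426 under tacrolimus). For Ccl6, 4 were higher under anti-IL-2, with 17.9% of genes higher and 3.2% lower, and 3 under tacrolimus, with 16.9% higher and 0.745% lower, which are shares near the background.

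Xcl1 had a partly different company in each library. Crtam, an adhesion receptor of activated cytotoxic cells, was in 70.1% of Xcl1-positive and 32.4% of Xcl1-negative anti-IL-2 CD8-gated cells, and in 44.7% and 19.2% under tacrolimus. Of the 15 activation genes 7 were higher in Xcl1-positive anti-IL-2 cells (18.5% of 961 genes higher, 4.37% lower), with Irf4 in 19.7% and 11.3%. Under tacrolimus 12 were higher (43.1% of 1010 genes higher, 6.63% lower), with Tnfrsf9, which encodes the costimulatory receptor 4-1BB, in 86.8% and 53.6%, and Csf2, the GM-CSF gene, in 23.7% and 2.94%. Gzmk was in 41.0% of Xcl1-positive and 66.7% of Xcl1-negative anti-IL-2 cells and in 39.5% and 77.0% under tacrolimus. NK-cell genes did not mark the Xcl1-positive anti-IL-2 cells: any of 5 measured NK genes was in 32.5% of them and 48.2% of the Xcl1-negative ones, led by Eomes, which CD8 T cells also express. Under tacrolimus they were in 57.9% of the Xcl1-positive and 52.4% of the Xcl1-negative CD8-gated cells.

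Ccl5 accompanied cytotoxic genes under anti-IL-2 with the shift removed. Which cells of that library counted as Ccl5-positive depended on the shift handling, from 61.3 to 85.2% of CD8-gated cells. Of 11 measured cytotoxic genes 4 were in at least 1.5-fold more Ccl5-positive than Ccl5-negative anti-IL-2 CD8-gated cells (8.98% of 935 genes higher, 8.98% lower), with Gzmk in 74.6% and 39.4% and Prf1, the perforin gene, in 75.1% and 44.5%. Under tacrolimus 1 was higher, Gzmk (82.3% and 49.5%), and 1 lower, Gzmc (13.7% and 25.3%), while 2.91% of 928 genes were higher and 15.8% lower. Of the 15 activation genes, 2 were higher in Ccl5-positive anti-IL-2 cells, Irf8 (58.6% and 36.0%) and Ifng (39.8% and 21.2%), and 2 were lower. Under tacrolimus 0 were higher and 4 lower, beside the same shares of all genes. Crtam was among the lower ones in both libraries, with 28.8% and 57.6% under anti-IL-2 and 17.9% and 28.8% under tacrolimus.

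Other chemokine ligands were rare: none of 15 more ligand genes measured reached 5% of T cells in either library and gate. Of 13 measured receptor genes, 3 were in more CD8-gated cells under anti-IL-2 by the size rule and 1 in fewer, beside 9.29% of all genes tested that were higher and 9.4% lower. These were Ccr7, the lymph node homing receptor (11.6% against 2.09% under tacrolimus), Cxcr5, the follicle homing receptor (8.92% against 0 of 956 cells), and Ccr6 (12.2% against 0.209%). Ccr2, which binds monocyte-attracting chemokines, was in fewer (38.3% against 65.8%). In the CD4 gate, where 13.1% of genes were higher and 35.2% lower, Ccr7 was in 27.1% of cells under anti-IL-2 (4.81% under tacrolimus) and Cxcr5 in 31.2% (3.85%). There Ccr2 was in 18.6% (45.6% under tacrolimus).

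Within the anti-IL-2 CD8 gate the receptors differed by which chemokine a cell had. Ccr7 was in 4.58% of Ccl5-positive and 24.6% of Ccl5-negative cells, and Ccr6 in 5.03% and 25.4%, where 8.98% of all genes were lower by the size rule. The split by Ccl5 depends on the shift handling, as given above. For Xcl1 the order was the reverse, with Ccr7 in 20.5% of positive and 9.71% of negative cells, and Ccr6 in 27.4% and 8.99%, where 18.5% of all genes were higher. Under tacrolimus, Xcl1-positive CD8-gated cells likewise had Ccr7 in 18.4%, against 1.42% of Xcl1-negative ones, with 43.1% of all genes higher.

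Ccl6 had its highest shares outside the T cells kept. Cells left out for at least 2 myeloid genes numbered 73 under anti-IL-2, of which 74.0% had Ccl6 (62.4 to 83.6%), and 80 under tacrolimus, of which 61.2% did (49.7 to 71.9%), with up to 281 UMIs in 1 tacrolimus cell against at most 10 in a CD8-gated one. No Cd4 or Cd8 UMI was found in 22 of the 73 and 25 of the 80, and the others had one, so some may hold RNA of more than 1 cell. Ccl5 was in 47.9% and 52.5% of them and Xcl1 in 13.7% and 6.25%. In the CD8 gate any of 19 measured myeloid genes was found in 91.7% of cells under anti-IL-2 and 96.4% under tacrolimus, and in the CD4 gate in 72.9% and 84.4%. Cst3 led them, in 84.6% of CD8-gated cells under anti-IL-2 and 94.0% under tacrolimus. It hardly differed by Ccl6 (85.7% of Ccl6-positive and 84.4% of Ccl6-negative anti-IL-2 cells). Over all anti-IL-2 T cells the gene most like Ccl6 by phi was Fcer1g, of the myeloid and NK lists (26.7% and 5.50%). It was not among the 3 most like Ccl6 under tacrolimus. Pf4, a platelet gene, was in 6.35% and 1.15% of CD8-gated cells under anti-IL-2 and 6.17% and 0.343% under tacrolimus. The part of RNA from other cells in the Ccl6 shares was not tested.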

How the data were processed

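Libraries were made with droplets and 5' chemistry and read on a NextSeq500, per the labels' protocols. Cell Ranger 3.1.0, Seurat without a version, and mm10 are listed in the submitters' processing notes. The authors deposited 2000 genes per file as natural log values. Tacrolimus values (1688 cells) were whole UMIs at a scale of 50000 per cell (100% within 0.001). Anti-IL-2 values (1551 cells) were 13.9% negative and 42.0% exactly 0, as batch-integrated values are. The design had assumed counts. A further 308 columns repeated anti-IL-2 cells and were used once; 0 columns belonged to no sample.

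Each anti-IL-2 cell's UMI total was fitted, each gene's integration shift was estimated over 30 neighbouring cells and removed, and values above 0.5 of the level of 1 UMI were read as detections. Fitted totals were within 1.25-fold of directly readable ones in 95.3% of the 190 cells with 2 or more readable values. Where several whole-number totals could be read, the one nearest the fitted total was taken. This share is therefore no independent check and cannot show fits that are off by a whole multiple. The settings were chosen among 12 for totals, 16 for the shift and 12 for its smoothing on simulated libraries, while shares of the chemokines in the real anti-IL-2 cells were in view, and a second fitting round and a refinement step were tried and dropped. Ccl4, Ccl5 and Tcf7 move with these settings: over 3 forms of shift removal Ccl5 was in 50.6 to 60.4% of anti-IL-2 T cells and Tcf7 in 47.0 to 57.8%. On another simulated pair (844 cells each, Seurat integration, used for no choice) 99.5% of detection calls were right, and the 95th percentile of errors in shares was 1.07 points. Genes changed 0.25-, 0.5-, 2- and 4-fold had median recovered differences of -15.6, -8.95, 13.9 and 24.6 points, for true ones of -16.3, -9.36, 13.9 and 24.7. Both simulated libraries were parts of the tacrolimus cells, so states rare there, such as Tcf7-detected CD8 cells, were hardly tested.

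Cells with 2 or more genes of a myeloid, B, erythroid, mast cell or platelet list were left out. No doublet caller was run; cells with both Cd4 and Cd8 UMIs (89 in each library) were set apart. Tacrolimus cells deeper than the anti-IL-2 cells of the same rank were thinned to that depth, and the others were kept whole. Expected shares were computed and not drawn. Intervals are exact (Clopper-Pearson, conditional for ratios, Poisson for UMIs); a count of 0 is given the limit of 3 counts. Named beyond the 5 genes are chemokine receptors past the size rule (1 is not reported here), the 3 genes most like each by phi under tacrolimus, and up to 5 genes per activation or cytotoxic list with the largest differences. Some marker genes of other lineages are named too. The genes and lists were chosen with earlier results of these data known. The fixed depth of 8000 UMIs was set after depths had been seen. The comparison at equal mix of states was added after values had been seen. Scripts ran in Python 3.11.15 with numpy 2.4.6 and scipy 1.17.1, and the simulation in R 4.3.3 with Seurat 5.3.0.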

Additional observations from a re-analysis of the deposited data

How the results depend on the processing

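No paired analysis was possible because each treatment had 1 library, and for the same reason no replicate could be left out. In the comparison of treatments, the number of the 5 genes past the size rule stayed within 1.5-fold of the value reported under every alternative except the 217 anti-IL-2 cells with a directly read total, where it was 4 over all T cells and 2 in the CD8 gate, and where Ccl6 reversed in the CD4 gate (log2 ratio 0.44). Xcl1 had a log2 ratio of 2.13 in the CD8 gate and between 1.99 and 2.72 under the alternatives in shares, and 1.46 in mean UMIs per 10000. Over all genes, leaving the shift in gave 83 lower genes over all T cells (153 as reported) and 51 in the CD8 gate (88). A 2-fold rule gave 58 higher and 36 lower over all T cells, 79 and 207 in the CD4 gate and 47 and 41 in the CD8 gate. Within libraries, the number past the rule between dividing and non-dividing cells depended most on the settings. For the anti-IL-2 CD4 gate it was 2 at a limit of 6 division genes; for the anti-IL-2 CD8 gate it was 2 at a limit of 2 division genes and at 8000 to 16000 UMIs; for the tacrolimus CD4 gate it was 0 at a fixed depth and 1 at 8000 to 16000 UMIs; for the tacrolimus CD8 gate it was 2 at a limit of 6. Ccl6 in the anti-IL-2 CD4 gate reversed with the shift left in (-0.14) and at a limit of 6 (-0.67), and Ccl3 in the tacrolimus CD4 gate at 8000 to 16000 UMIs (-0.29). By Tcf7 in the anti-IL-2 CD8 gate, 2 genes met the rule with no median over neighbours, and Ccl5 reversed with the shift left in (0.018). Over all tacrolimus T cells 1 pair, not 4, was at least 1.5 times the product at 8000 to 16000 UMIs. Of the values of single genes and pairs, 373 stayed within the interval of the value reported, 78 moved outside it and 5 reversed. The 5 are those named above, each of a value that met the rule as reported. Values short of the rule could change sign too and are not among the 5. Examples with the shift left in are Ccl5 between treatments in the CD8 gate and the Xcl1 and Ccl5 pair over all anti-IL-2 T cells. Settings for shift removal, the 8000 to 16000 UMI window, the stricter filter on other lineages, leaving out shared barcodes and leaving out the cell with the most UMIs were chosen after seeing the data; the cause of these changes was not tested. The number of cells limits statements on Xcl1 under tacrolimus, with 38 positive CD8-gated cells, and on the 27 tacrolimus CD8-gated cells with Tcf7.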
